A study of Mus musculus with 4 samples.

Results

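The 9 genes described here encode the MYC, MAX and MXD network of transcription factors (Myc, Mycn, Max, Mxd1, Mxd3, Mxd4, Mxi1, Mnt and Mlx). They were taken by name from the 41342 named genes counted by RNA-seq in splenic B cells of mutant mice. The mice carried 1 of 2 homozygous mutations of the 3′ regulatory region (3′RR), a set of enhancers downstream of the immunoglobulin heavy chain genes. In ΔleftPAL mice the left arm of the 3′RR palindrome, with hs3a, hs1,2 and the inverted repeat sequence (IRIS) between them, had been deleted. In ΔIRIS mice the IRIS was deleted and hs3a was put back in the opposite orientation, so that the palindrome was lost while every enhancer was kept. Both alleles were made in E14 embryonic stem cells, had their neomycin cassette removed by cre, and were kept on a 129 background. The animals were male and 8 to 12 weeks old, and wild-type libraries were not analysed here.

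B cells were CD43- spleen cells, either freshly isolated (resting) or cultured for 48 hours with LPS at 5 μg/ml. LPS, a bacterial cell wall component, activates B cells through Toll-like receptor 4. Each of the 4 groups was 1 library made from pooled animals (4 animals per the labels, with the numbers and pools described differently elsewhere in the study), so no difference below has a replicate check and no p-value is given. Resting cells were not cultured, so LPS and culture cannot be told apart. In these bulk samples, fewer cells of a type and less RNA per cell cannot be told apart either. All levels below are relative to the total of their library, and total RNA per cell was not measured. A lower level after LPS therefore need not mean less of that RNA per cell.

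MYC and MYCN are basic helix-loop-helix leucine zipper proteins that bind E-box DNA as heterodimers with MAX and activate genes of growth, ribosome production and the cell cycle. The MXD proteins (MXD1, MXD3, MXD4 and MXI1, also called MXD2) and MNT compete for MAX, bind the same E-boxes and recruit SIN3 and histone deacetylases to repress. MLX is a MAX-like protein that pairs with MLXIP and MLXIPL, and with some MXD proteins and MNT. In lymphocytes MYC is known as an early gene of activation, and MXD proteins as factors of resting or differentiating cells.

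Named genes received 23615496 to 29776108 read counts per library. Levels are given as CPM, a gene's counts divided by the TMM-scaled size of its library and set to a common total, and intervals are exact 95% Clopper-Pearson intervals that cover counting error only. The 4 B cell markers reported here (Cd79a, Cd79b, Ms4a1 and Pax5) were present in every library, with a summed level of 2153 to 2525 CPM at rest and 1575 to 1705 CPM after LPS. Summed markers of T, NK, myeloid and erythroid cells were higher at rest. The 5 T cell markers summed to 19.3 to 25.2 CPM at rest and 0.0341 to 0.111 CPM after LPS, and Cd3e, Cd3d and Cd3g were at 0 in both LPS libraries. The 4 NK cell markers summed to 4.23 to 7.41 CPM at rest and 0.648 to 1.11 CPM after LPS, with Ncr1 at 0 in both LPS libraries. The 5 myeloid markers summed to 288 to 385 CPM at rest and 6.79 to 16 CPM after LPS, with S100a8 and S100a9 at 0 in both LPS libraries, while Itgam went from 10.5 to 15.4 CPM in ΔIRIS cells. The 5 erythroid markers summed to 26450 to 37666 CPM at rest and 53.9 to 114 CPM after LPS, and none was at 0. The 6 plasma cell markers summed to 625 to 897 CPM at rest and 1279 to 1815 CPM after LPS. In ΔIRIS cells 2 of the 6, Irf4 (604 and 392 CPM) and Sdc1 (17.9 and 13.2 CPM), were lower after LPS. The part of other cells in the network genes' values was not tested.

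Max is the common partner of the network, and the files hold 2 transcripts of it that differ by 1 coding exon. The longer form (Max-202, ENSMUST00000110395) holds a 27-base exon, the second of 5, at chr12:76961263-76961289 on the minus strand of GRCm38. The shorter form (Max-201, ENSMUST00000082136) joins the flanking exons directly. The exon adds 9 residues near the amino terminus, before the DNA-binding region. The junctions are shown because the share of the 2 forms differed between resting and LPS-cultured cells. The exon is in capitals, with 15 bases of each flanking exon in lower case.
Max long form: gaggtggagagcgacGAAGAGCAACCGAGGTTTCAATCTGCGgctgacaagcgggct
Max short form: gaggtggagagcgacgctgacaagcgggct

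The E-box CACGTG, the sequence these proteins bind, was looked for in RefSeq promoter windows (GRCm38.p6) that run from 250 bases before to 50 bases after each gene's start. It reads the same on both strands. Of the 9 genes 8 had a window in that table (Mxi1 had 3, and Myc had none), and 4 of the 8 held CACGTG. Across all 32851 windows 7.15% held it, as did 8.09% of the genes with a window, and among the 7968 expressed genes that had a window (mean of 50 counts or more) 12.4% did. In the 100 bases nearest the start, 2 of the 8 held CACGTG, against 5.74% of the expressed genes. The related hexamer CACGCG, read on either strand, was in 0 of the 8 genes, in 10.5% of all genes with a window and in 20.8% of the expressed ones. Within the nearest 100 bases it was in 9.49% of the expressed ones. The 4 stretches are shown 5′ to 3′ on the gene's strand, with the E-box in capitals. The letters are a description of these windows and no measure of binding.
Mxd4, chr5:34187904-34187960, minus strand: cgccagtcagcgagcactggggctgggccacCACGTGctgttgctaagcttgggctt
Mnt, chr11:74830767-74830826, plus strand: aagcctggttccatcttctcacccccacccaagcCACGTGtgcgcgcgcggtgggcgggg
Mlx, chr11:101087216-101087275, plus strand: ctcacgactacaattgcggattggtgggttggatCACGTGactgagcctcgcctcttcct
Max, chr12:76962246-76962285, minus strand: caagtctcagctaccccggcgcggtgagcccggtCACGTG

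The E-box began 219 bases before the start in Mxd4, 123 in Mnt, 40 in Mlx and 3 in Max. These 4 genes did not move together after LPS. As given below, Mnt was at least 2-fold lower in both genotypes and Mxd4 only in ΔIRIS cells. Mlx was higher, at the 2-fold limit in ΔIRIS cells and short of it in ΔleftPAL cells, and Max differed little.

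In LPS-cultured cells Mxd1, Mxi1 and Mnt were at least 2-fold lower than at rest in both genotypes, Mxd3 was higher, and Max stayed close to its resting level. Myc and Mxd4 were also below their resting levels, but Myc passed 2-fold only in ΔleftPAL and Mxd4 only in ΔIRIS cells. A gene was counted as higher or lower when its 2 libraries were at least 2-fold apart and its mean was at least 50 counts over the 4 libraries, which 8 of the 9 genes and 11286 genes in all reached. In ΔleftPAL cells 4 of the 8 (Myc, Mxd1, Mxi1 and Mnt) were lower after LPS, against 16.5% of all genes tested. There, 1 of the 8 (Mxd3) was higher, against 21.3%. In ΔIRIS cells 4 of the 8 (Mxd1, Mxd4, Mxi1 and Mnt) were lower, against 18.2%, and 2 of the 8 (Mxd3 and Mlx) were higher, against 22.8%. In both genotypes 3 of the 8 were lower, against 14% of all genes, and 1 was higher, against 18.4%. The median log2 ratio of the 8 genes was -0.89 in ΔleftPAL and -0.96 in ΔIRIS cells, beside 0.12 and 0.13 over all genes tested.

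**Figure D1:**
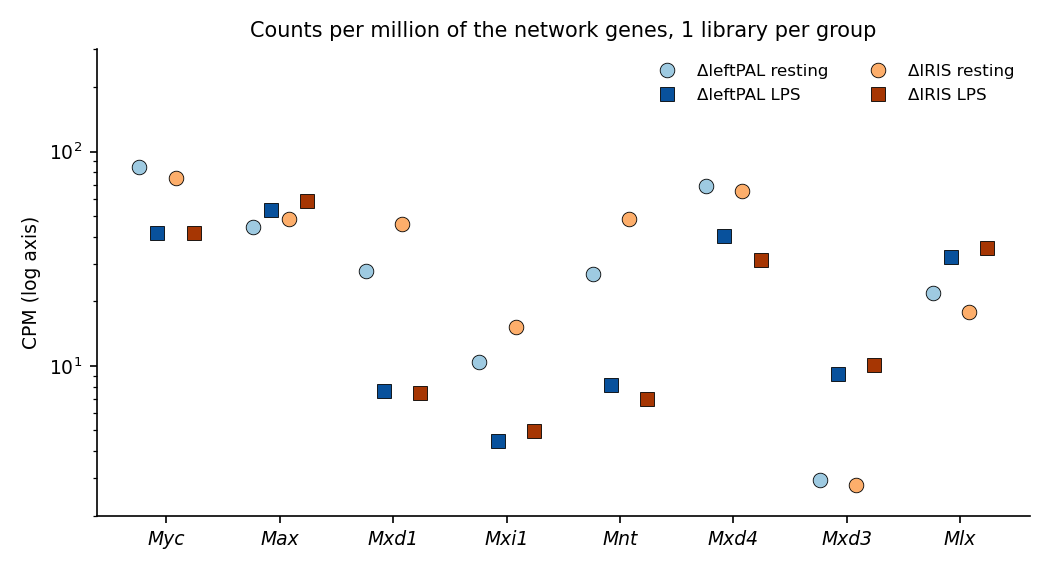
CPM (log axis) of the 8 network genes that passed the count minimum, 1 point per library, in resting (circles) and LPS-cultured (squares) cells of both genotypes. Mxd1, Mxi1, Mnt, Mxd4 and Myc lie lower in both LPS libraries than in both resting ones, and Mxd3, Mlx and Max lie higher.

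Myc (ENSMUSG00000022346, chr15:61985341-61990374 on the plus strand of GRCm38), the activator of the network, had 84.5 CPM in resting ΔleftPAL cells and 75.4 CPM in resting ΔIRIS cells. After LPS it had 41.8 CPM in ΔleftPAL and 41.7 CPM in ΔIRIS cells. Both resting values were above both LPS values. Its level was 2.02-fold lower after LPS in ΔleftPAL cells (1.88 to 2.18) and 1.81-fold lower in ΔIRIS cells (1.68 to 1.94). The first value lies just past the 2-fold limit and the second just short of it, and the counts behind them were 1127 to 2193 per library. The ΔleftPAL log2 ratio was short of the limit with kallisto estimated counts (-0.91) and with TMM without immunoglobulin genes (-0.997).

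Mycn (ENSMUSG00000037169), the relative of Myc found mainly in early progenitors and neural tissue, had 2 counts in resting ΔleftPAL cells and 3 after LPS, and 0 in both ΔIRIS libraries. Its values were at or under the floor of 3 counts, which corresponds to 0.102 to 0.123 CPM across the libraries. Mycn was therefore not detectable above that level in the gene counts of any library, and no fold is given. Kallisto estimated 6 counts in resting and 4 in LPS-cultured ΔleftPAL cells, and 4 and 0 in ΔIRIS cells.

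Max (ENSMUSG00000059436, chr12:76937269-76962248, minus strand) had 44.7 CPM in resting ΔleftPAL cells and 53.1 CPM after LPS. In ΔIRIS cells it had 48.6 CPM at rest and 58.6 CPM after LPS. Its log2 ratio of LPS over resting was 0.25 (0.13 to 0.36) in ΔleftPAL and 0.27 (0.17 to 0.37) in ΔIRIS cells. Of all genes tested, 18.2% and 18.9% had a ratio closer to 0 in these comparisons. In TPM, kallisto's level per transcript length and library total, it was 30.8 and 31.2 in ΔleftPAL cells, and 32.5 and 33.8 in ΔIRIS cells, a log2 ratio of 0.02 and 0.06. The size of this small difference thus depended on the scale.

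The 2 forms of Max differed more than their sum. The long form, with the exon shown above, took 54.4% of the estimated Max counts in resting ΔleftPAL cells and 30.9% after LPS. In ΔIRIS cells it took 49.0% at rest and 25.0% after LPS. The short form took the rest, 45.6% and 69.1% in ΔleftPAL and 51.0% and 75.0% in ΔIRIS cells. Both resting shares of the long form were above both LPS shares. In estimated counts scaled by TMM, the short form was higher after LPS, with log2 ratios of 0.98 and 1.02, and the long form was lower, with -0.44 and -0.51. In TPM the short form went from 14.2 to 21.7 in ΔleftPAL and from 16.7 to 25.5 in ΔIRIS cells, while the long form went from 16.7 to 9.54 and from 15.8 to 8.35. These counts are model-based estimates by kallisto, which divides reads between the forms from the bases that differ, so no counting interval is given.

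**Figure D2:**
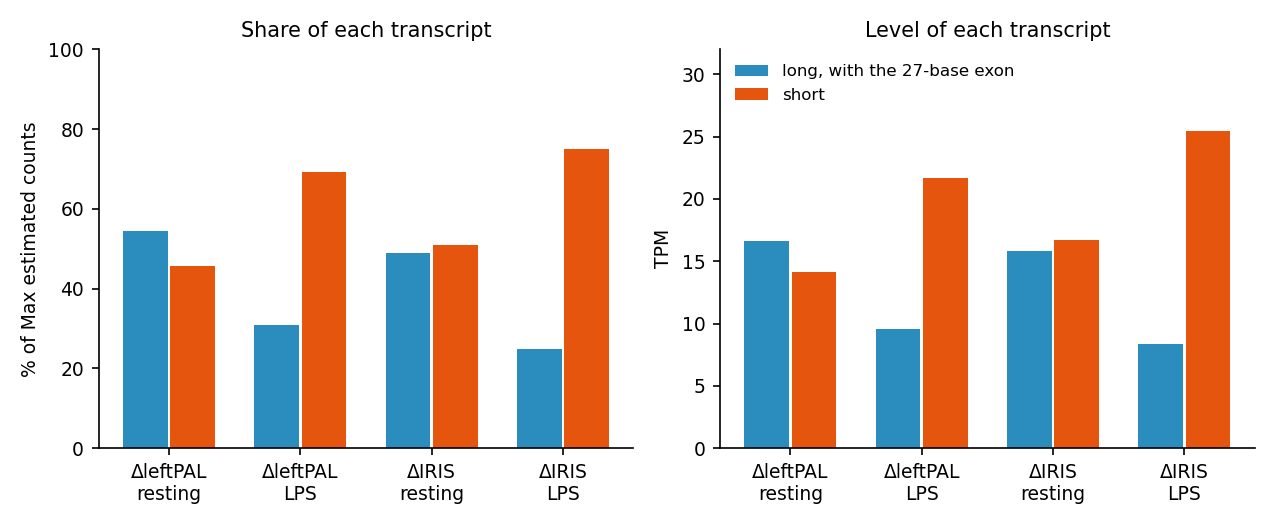
Percentage of the kallisto estimated counts of Max (left) and TPM (right) for the long form with the 27-base exon and the short form, 1 bar per form and library. The long form takes 49.0% to 54.4% at rest and 25.0% to 30.9% after LPS.

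Among the repressors, Mxd1 and Mnt differed most between resting and LPS-cultured cells. Mxd1 (ENSMUSG00000001156), known for its induction in differentiating blood cells, had 27.8 CPM in resting ΔleftPAL cells and 7.65 CPM after LPS. The ΔIRIS values were 45.8 CPM at rest and 7.44 CPM after LPS. It was 3.64-fold lower after LPS in ΔleftPAL cells (3.11 to 4.28) and 6.16-fold lower in ΔIRIS cells (5.33 to 7.14). The LPS libraries had nearly equal levels and the resting ones did not.

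Mnt (ENSMUSG00000000282), the repressor that is present in most cell types, had 26.7 CPM in resting ΔleftPAL cells and 8.13 CPM after LPS. In ΔIRIS cells it had 48.2 CPM at rest and 6.99 CPM after LPS. It was 3.28-fold lower after LPS in ΔleftPAL (2.81 to 3.84) and 6.90-fold lower in ΔIRIS cells (5.95 to 8.02). In the ΔIRIS comparison 4.90% of all genes tested had a lower ratio.

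Mxi1 (ENSMUSG00000025025), also known as MXD2, was the repressor with the lowest resting count after Mxd3. It had 10.4 CPM in resting ΔleftPAL cells and 4.45 CPM after LPS, with 254 and 120 counts. ΔIRIS cells had 15.2 CPM at rest and 4.95 CPM after LPS, with 443 and 145 counts. It was 2.33-fold lower in ΔleftPAL (1.87 to 2.93) and 3.08-fold lower in ΔIRIS cells (2.55 to 3.74). With kallisto estimated counts the ΔleftPAL log2 ratio was -0.96, short of the 2-fold limit. Its 3 annotated transcripts start at different exons and shared the estimated counts unevenly, with no common order over the libraries. Mxi1-201 took 36.7% to 42.9%, Mxi1-202 took 36.5% to 63.3% and Mxi1-203 was at 0 in 2 of the 4 libraries.

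Mxd4 (ENSMUSG00000037235), a repressor linked to resting and differentiated cells, had the highest CPM of the 5 repressor genes in each library. It had 68.7 CPM in resting ΔleftPAL cells and 40.2 CPM after LPS, and 65.2 and 31.3 CPM in ΔIRIS cells. It was 1.71-fold lower after LPS in ΔleftPAL (1.58 to 1.85) and 2.08-fold lower in ΔIRIS cells (1.92 to 2.26). Only the ΔIRIS value passed the 2-fold limit. With kallisto estimated counts its log2 ratio there was -0.90, short of the limit. Nearly all of its estimated counts, 95.8% to 99.5%, came from the transcript Mxd4-201.

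Mxd3 (ENSMUSG00000021485), the MXD gene known for its link to S phase in proliferating cells, moved the other way. It had 2.95 CPM (72 counts) in resting ΔleftPAL cells and 9.17 CPM (247 counts) after LPS. In ΔIRIS cells it had 2.79 CPM (81 counts) at rest and 10.1 CPM (296 counts) after LPS. It was 3.11-fold higher after LPS in ΔleftPAL (2.38 to 4.10) and 3.62-fold higher in ΔIRIS cells (2.83 to 4.69). The ΔleftPAL log2 ratio was 1.64 in CPM, 1.29 with kallisto estimated counts and 1.00 in TPM, and the ΔIRIS one was 1.86, 1.69 and 1.34. Part of its resting signal came from Mxd3-203, a retained-intron transcript without an annotated reading frame. That transcript took 31.6% of the estimated counts at rest and 10.9% after LPS in ΔleftPAL cells, and 23.6% and 7.24% in ΔIRIS cells. Its coding transcript, Mxd3-201, had a log2 ratio of 1.67 in ΔleftPAL and 1.96 in ΔIRIS cells. The gene count was 0.711 and 0.742 of the kallisto estimate at rest and 0.988 and 0.933 after LPS, so the 2 ways of counting differed more at rest. An exon of Prelid1 on the opposite strand overlaps Mxd3, and reads were counted by strand. Prelid1 had 1245 to 1324 counts at rest and 3650 to 4302 after LPS, and its part in the Mxd3 values was not tested. The 6 proliferation markers (Mki67, Top2a, Ccnb1, Cdk1, Mcm2 and Pcna) were higher after LPS in both genotypes, 6 of 6. Their summed level was 486 to 612 CPM at rest and 3601 to 4058 CPM after LPS, and its part in the Mxd3 values was not tested.

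Mlx (ENSMUSG00000017801), the partner of the glucose-sensing factors, had 22.0 CPM in resting ΔleftPAL cells and 32.2 CPM after LPS. In ΔIRIS cells it had 17.7 CPM at rest and 35.5 CPM after LPS. Its level was 1.47-fold higher after LPS in ΔleftPAL (1.31 to 1.64) and 2.00-fold higher in ΔIRIS cells (1.80 to 2.23), at the limit. Under total counts, DESeq2 size factors or TMM without immunoglobulin genes, the ΔIRIS value fell under the limit. Psmc3ip on the opposite strand overlaps its exons and had 59 to 71 counts at rest and 513 to 522 after LPS. The largest share of Mlx estimated counts was that of Mlx-202, 50.1% at rest and 41.4% after LPS in ΔleftPAL cells, and 58.2% and 41.7% in ΔIRIS cells. Mlx-203, which lacks an exon of that form, took 13.6% and 17.5% in ΔleftPAL and 9.61% and 21.5% in ΔIRIS cells.

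**Figure D3:**
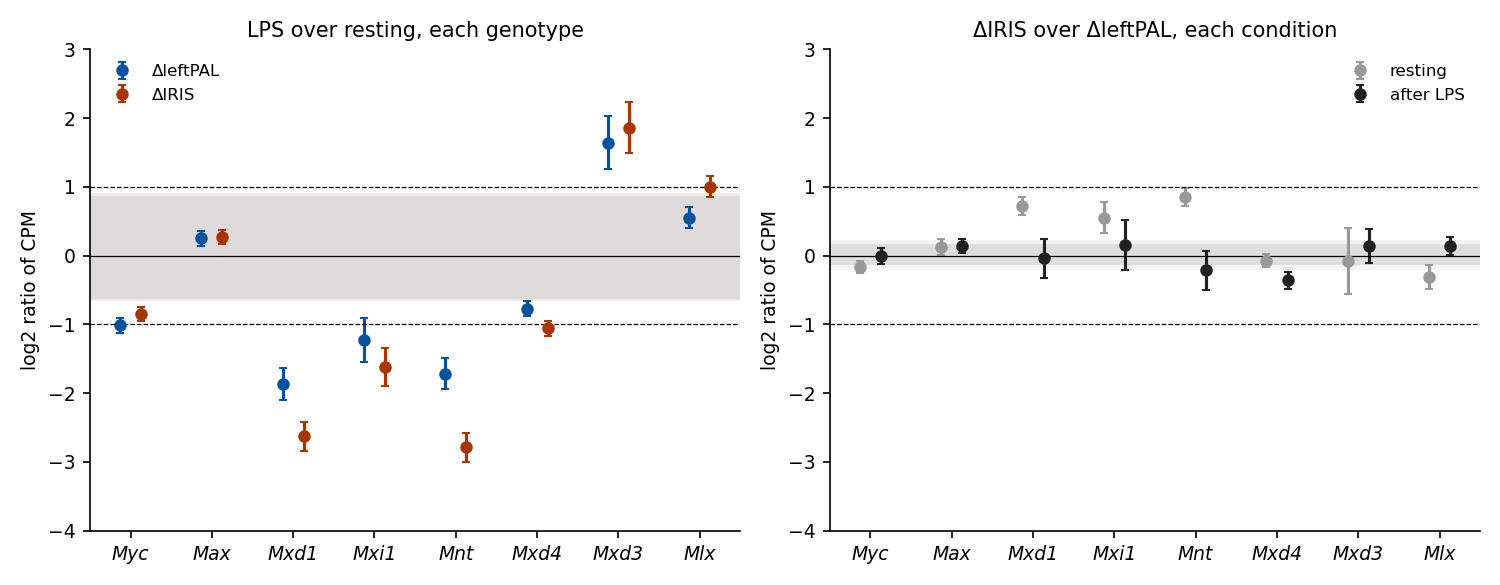
Log2 ratio of CPM of 8 network genes with exact 95% intervals for counting error, LPS over resting in each genotype (left) and ΔIRIS over ΔleftPAL in each condition (right). Dashed lines mark 2-fold and shading marks the range between the quartiles of all genes tested. Mnt and Mxd1 have the lowest LPS ratios in both genotypes and the highest ΔIRIS over ΔleftPAL ratios at rest.

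The genotypes, neither of which kept the palindrome, were compared to ask how the network differed between cells with hs3a and hs1,2 (ΔIRIS) and cells without them (ΔleftPAL). At rest, Mnt, Mxd1 and Mxi1 were higher in ΔIRIS than in ΔleftPAL cells, by 1.81-fold (1.65 to 1.99), 1.65-fold (1.5 to 1.81) and 1.47-fold (1.25 to 1.72). None of the 8 genes reached 2-fold, against 2.42% of all genes tested that were higher and 1.38% that were lower in ΔIRIS cells. Among all genes tested, 3.59% had a higher ratio than Mnt, 5.06% than Mxd1 and 8.43% than Mxi1. Mlx was 1.24-fold lower (1.1 to 1.4) and Myc 1.12-fold lower (1.06 to 1.19) in resting ΔIRIS cells. Max, Mxd3 and Mxd4 had log2 ratios of 0.12, -0.08 and -0.08. The resting libraries also differed in summed myeloid markers (288 CPM in ΔleftPAL, 385 CPM in ΔIRIS), erythroid markers (37666 and 26450 CPM) and plasma cell markers (625 and 897 CPM). Irf4 carried the plasma cell sum, with 285 and 604 CPM, while Mzb1 (73.6 and 49.3 CPM) and Igj (188 and 155 CPM) were lower in ΔIRIS cells. Within the myeloid list S100a8, S100a9 and Itgam were lower in ΔIRIS cells, at 0.688, 0.826 and 10.5 CPM against 3.52, 5.24 and 13.1 CPM. The part of these markers' cells in the ratios was not tested.

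After LPS none of the 8 genes reached 2-fold between the genotypes, against 1.1% of all genes that were higher and 2.74% that were lower in ΔIRIS cells. Myc was at 41.8 and 41.7 CPM, a log2 ratio of -0.004 (-0.12 to 0.11) whose sign changed with the scaling. In CPM Mxd4 had the largest difference, 1.28-fold lower in ΔIRIS cells (1.18 to 1.41), and 81.2% of all genes lay closer to 0. In TPM Mnt had a log2 ratio of -0.76, but much of it came from Mnt-203, a short retained-intron transcript with 18.7 and 4.22 estimated counts. With protein-coding transcripts alone, an alternative chosen after seeing the data, the TPM ratio was -0.25 for Mnt beside -0.30 for Mxd4. In CPM Mnt had a log2 ratio of -0.22 (-0.50 to 0.06) and Mxd1 of -0.04 (-0.32 to 0.24, and 0.008 with kallisto estimated counts), and both intervals included 0. The median absolute log2 ratio of the 8 genes was 0.14 after LPS and 0.24 at rest, beside 0.15 and 0.22 over all genes tested. The LPS libraries differed in summed plasma cell markers (1815 CPM in ΔleftPAL, 1279 CPM in ΔIRIS) and erythroid markers (53.9 and 114 CPM). Within the myeloid list Itgam was 2.95-fold higher in ΔIRIS cells. Lyz2 was lower there (1.30 CPM in ΔleftPAL, 0.478 CPM in ΔIRIS, with 35 and 14 counts). Csf1r had 0.297 and 0.171 CPM from 8 and 5 counts, and the interval of its log2 ratio (-0.80, from -2.76 to 0.99) included 0. The part of these cells in the ratios after LPS was not tested.

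The LPS ratio was lower in ΔIRIS than in ΔleftPAL cells for Mnt, by -1.07 on the log2 scale (-1.38 to -0.76), and for Mxd1, by -0.76 (-1.07 to -0.44). Of all genes tested, 93.2% had a smaller difference than Mnt and 88.0% than Mxd1. The difference was 0.45 (0.23 to 0.67) for Mlx, -0.29 (-0.45 to -0.13) for Mxd4 and 0.16 (0.01 to 0.31) for Myc. The intervals of Mxi1 (-0.40, from -0.83 to 0.03), Mxd3 (0.22, from -0.32 to 0.76) and Max (0.02, from -0.14 to 0.17) included 0. These differences rest on the same resting libraries as the genotype ratios above. The intervals compare 4 libraries and not the genotypes.

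Levels of different genes were compared per length, in TPM. At rest Myc had the highest TPM of the 9 genes, with 61.2 in ΔleftPAL and 48.4 in ΔIRIS cells, followed by Max and Mxd4. After LPS Myc, with 24.3 and 23.2 TPM, came behind Max (31.2 and 33.8 TPM) and Mlx (29.2 and 31.7 TPM). Of the Mlx TPM there, 38.3% and 39.3% came from transcripts without an annotated reading frame, and with protein-coding transcripts alone Mlx (18.0 and 19.2 TPM) lay below Myc. The ratio of Myc to Max was 1.99 at rest and 0.778 after LPS in ΔleftPAL cells, and 1.49 and 0.686 in ΔIRIS cells. Computed from gene counts per kilobase the ratio was 1.37 and 0.571 in ΔleftPAL, and 1.12 and 0.516 in ΔIRIS cells.

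The 5 repressor genes together had 51.0 TPM at rest and 26.9 TPM after LPS in ΔleftPAL cells, and 62.5 and 24.4 TPM in ΔIRIS cells. Relative to Myc they stood at 0.834 at rest and 1.11 after LPS in ΔleftPAL cells, and at 1.29 and 1.05 in ΔIRIS cells. The repressor to Myc ratio was thus higher after LPS in ΔleftPAL and lower in ΔIRIS cells, and gene counts per kilobase gave the same order (1.07 and 1.25, then 1.51 and 1.12), as did protein-coding transcripts alone (0.741 and 1.03, then 1.16 and 1.02). Myc, Mycn and the 5 repressors together had 3.65 times the TPM of Max at rest and 1.64 times after LPS in ΔleftPAL cells, and 3.41 and 1.41 times in ΔIRIS cells. TPM measure RNA and not the amount of protein.

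The make-up of the repressor RNA differed between resting and LPS-cultured cells. Mxd3 made up 8.24% of it at rest and 31.3% after LPS in ΔleftPAL cells, and 6.08% and 39.5% in ΔIRIS cells. Mnt made up 23.4% and 12% in ΔleftPAL, and 30.1% and 7.83% in ΔIRIS cells. Its retained-intron transcript gave 13.4% to 39.3% of its TPM, and with protein-coding transcripts alone Mnt made up 16.1% and 7.90% in ΔleftPAL, and 23.7% and 7.0% in ΔIRIS cells. Mxd1 made up 15.6% and 6.90% in ΔleftPAL, and 20.6% and 7.06% in ΔIRIS cells. Mxd4 was the largest part in each library, at 36.7% to 47.2%, and Mxi1 made up 4.24% to 6.59%.

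**Figure D4:**
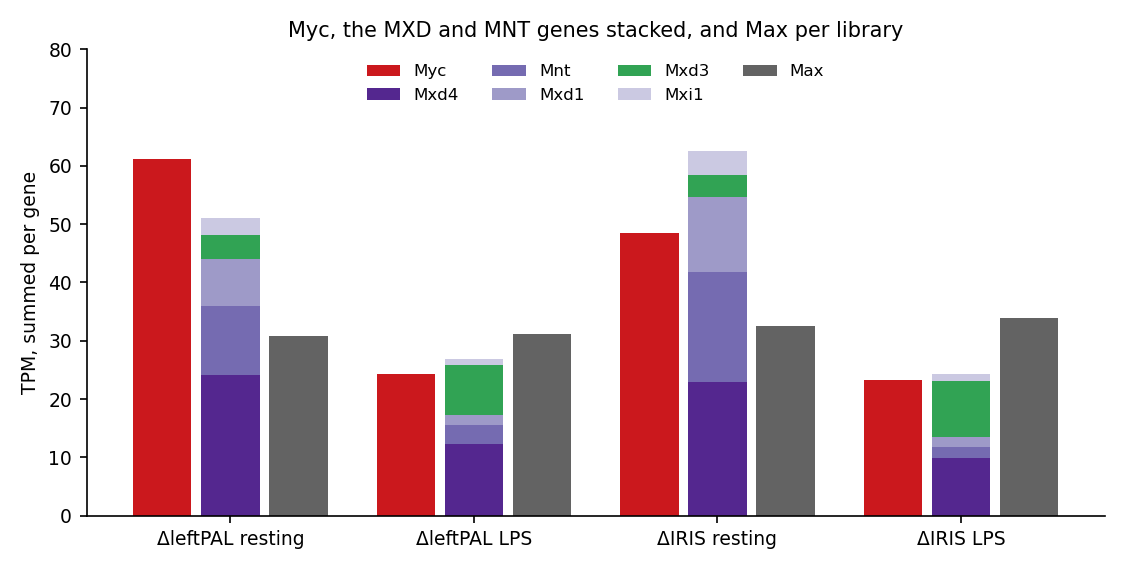
TPM summed per gene in each library for Myc, for the 5 repressor genes stacked, and for Max. Myc lies below Max in both LPS libraries (24.3 against 31.2 and 23.2 against 33.8 TPM), and Mxd3 takes 31.3% and 39.5% of the repressor stack there.

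The wider network was taken from a list of 4 genes, of which 3 passed the count minimum. Mycl, a further MYC gene, had 94 counts in resting and 36 in LPS-cultured ΔleftPAL cells, and 225 and 31 in ΔIRIS cells. Its log2 ratio after LPS was -1.53 (-2.12 to -0.96) in ΔleftPAL and -2.87 (-3.46 to -2.33) in ΔIRIS cells, and at rest it was 2.01-fold higher in ΔIRIS cells. Mga, a large MAX partner that represses germline genes, had log2 ratios of -0.52 and -0.60 after LPS. Mlxip, the MLX partner, had -0.67 and -0.68. Mlxipl had 3 counts or fewer in each library.

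Some genes for the corepressors that MXD proteins and MNT recruit were higher after LPS. Of the 9 reported here, 3 were at least 2-fold higher in both genotypes, against 18.4% of all genes. The 3 were Rbbp7 (log2 ratios 1.85 and 1.80) and Sap30 (1.48 and 1.47), both subunits of SIN3 complexes, and the deacetylase Hdac2 (1.35 and 1.44). The scaffold Sin3a differed little, with -0.06 and -0.16. The median log2 ratio of the 9 was 0.86 in ΔleftPAL and 1.16 in ΔIRIS cells.

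Of 13 genes for MYC coactivators and partners, 4 were higher in both genotypes and 0 lower, against 18.4% and 14% of all genes, with medians of 0.33 and 0.62. Examples were the helicases Ruvbl1 (log2 ratios 1.88 and 1.94) and Ruvbl2 (1.81 and 2.43) and the chromatin remodelling subunit Actl6a (1.35 and 1.63). The large subunits of the same acetyltransferase complexes were on the other side of 0, with -0.31 and -0.57 for Trrap and -0.49 and -0.59 for Ep400.

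Of the 11 genes for MYC protein turnover reported here, 2 were higher in both genotypes, a share near the 18.4% of all genes, and 0 were lower, against 14%. Their medians were 0.35 and 0.27. C330027C09Rik (Cip2a), which protects MYC from dephosphorylation, had log2 ratios of 3.23 and 3.33. Skp2, a ubiquitin ligase subunit that targets MYC, had 1.60 and 2.43. Fbxw7, the ligase subunit best known for MYC degradation, differed little, with -0.10 and -0.21, and the kinase Gsk3b had -0.48 and -0.49.

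Among 8 genes linked to MYC transcription, 2 were higher and 2 lower in both genotypes, against 18.4% and 14% of all genes. E2f1 (log2 ratios 2.01 and 1.74) and Pcbp1 (1.26 and 1.14) were higher. Foxo1 (-1.20 and -2.13) and Foxo3 (-1.38 and -1.91), factors known from resting lymphocytes, were lower. Pvt1, the long noncoding RNA beside Myc, had 182 to 282 counts per library and log2 ratios of 0.49 and 0.22. Those of Myc itself were -1.02 and -0.85, past the 2-fold limit only in ΔleftPAL cells.

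After LPS the level of Myc was below rest in both genotypes, but past the 2-fold limit only in ΔleftPAL cells. Most genes known as direct MYC-activated targets were at least 2-fold higher. Of 30 tested, 27 were at least 2-fold higher after LPS in both genotypes and 0 lower, against 18.4% and 14% of all genes, with a median log2 ratio of 1.80 in ΔleftPAL and 1.81 in ΔIRIS cells. The genes were ranked by the mean ratio of both genotypes. Highest were Ccnd2 (a G1 cyclin, 2.92 and 2.79), Srm (spermidine synthase, 2.78 and 3.32) and Rcc1 (a Ran exchange factor, 2.71 and 3.0). Odc1 (0.85 and 0.63), Ppan (0.74 and 1.11) and Tert (0.33 and 0.42, with 54 to 76 counts) had the lowest mean ratios. These genes are also expressed in proliferating cells generally. The proliferation markers given above were higher after LPS too, and the part of proliferation in these ratios was not tested.

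Of 10 genes known as MYC-repressed targets 6 were tested. Of these, 3 were lower in both genotypes, against 14% of all genes, and 0 higher, against 18.4%. Among those under the count minimum, Cdkn2b was higher after LPS in both genotypes. It had 8 and 74 counts in ΔleftPAL and 14 and 37 in ΔIRIS cells, log2 ratios of 3.07 and 1.39. Cdkn1c (0.73 and -1.01) and Pdgfrb (1.62 and -0.96) had opposite signs in the genotypes, and Ndrg2 had 7 counts or fewer in each library. Klf4, a factor linked to quiescence, went from 928 to 25 counts in ΔleftPAL and from 1960 to 17 in ΔIRIS cells, log2 ratios of -5.36 and -6.86. Gadd45a had -1.27 and -2.61 and Ndrg1 had -2.26 and -1.74. Cdkn1a, the p21 cell cycle inhibitor, had 10 counts in resting and 294 in LPS-cultured ΔleftPAL cells, and 99 and 190 in ΔIRIS cells. Its log2 ratio was 4.74 (3.84 to 5.81) in ΔleftPAL and 0.93 (0.57 to 1.29) in ΔIRIS cells, and at rest it was 8.32-fold higher in ΔIRIS cells. Of 7 other E-box factors 1 was lower in both genotypes, Mitf (-1.55 and -2.0), a share near the 14% of all genes, and 0 were higher, against 18.4%. Their medians were -0.20 and -0.01, and -0.07 and 0.17 with kallisto estimated counts.

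**Figure D5:**
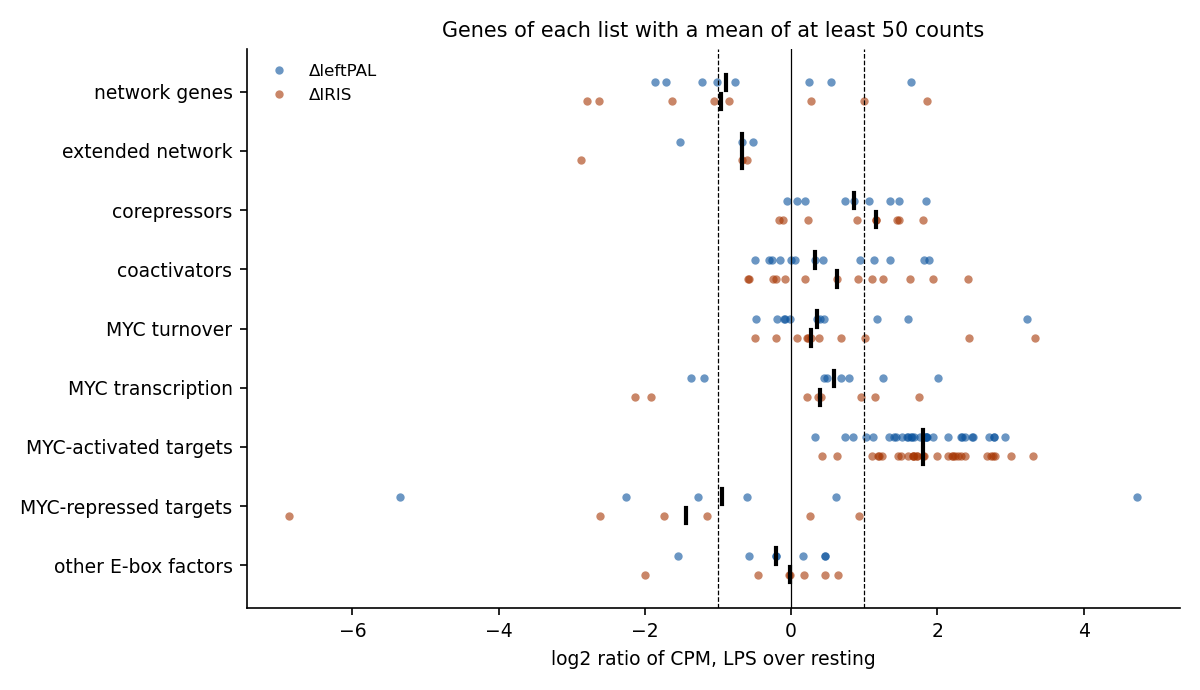
Log2 ratio of CPM, LPS over resting, of each gene that passed the count minimum in 9 lists, with 1 point per gene and genotype. Black ticks are medians and dashed lines mark 2-fold. The MYC-activated targets lie to the right (medians 1.80 and 1.81) and the network genes to the left (medians -0.89 and -0.96).

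Genes with the pattern most like each network gene were found among 11163 genes by the distance between log2 CPM profiles over the 4 libraries, each centred on its own mean. Sufu (distance 0.04), Zfyve27 (0.04) and Gm27326 (0.05) were nearest to Myc, and Sbno1, Sgk3 and Gtpbp1 to Max. Those nearest to Mxd1 were Gem, Kit and Zfp36l2, at 0.08 to 0.11. Kit was also nearest to Mnt (0.05), before Wdr96 and Tgif1. The level of Kit, a growth factor receptor of progenitors and mast cells, was 8.52 CPM at rest and 2.52 CPM after LPS in ΔleftPAL, and 15.2 and 2.29 CPM in ΔIRIS cells. Nearest to Mxi1 were Mef2d, RP23-404A6.3 and Mpeg1. Mxd4 lay nearest to Arrdc3, Slc16a6 and Sesn3. Mxd3 lay nearest to Snrnp40, Ftsj3 and Ssrp1, the last a subunit of a histone chaperone, and Mlx to Srek1ip1, Klhl6 and Wdr59. With 4 libraries many genes share a profile, so these names describe likeness only.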

How the data were processed

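RNA from CD43- splenic B cells was depleted of ribosomal RNA and sequenced as stranded paired 150-base reads. Per the study's methods, the authors aligned reads with STAR 2.4.0a to mm10 with Ensembl 77 gene models and deposited one table of counts per gene (featureCounts of Subread 1.4.6-p1, primary alignments, strand-specific, multimapping reads included). The authors also deposited kallisto 0.42.3 tables with an estimated count and a TPM per transcript, which were summed per gene. Kallisto's index was not given in the sources used here. Multimapping reads can be counted for near-identical copies of a gene.

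A row without a gene name held 0.00876% to 0.0264% of the counts and was left out. Library sizes were scaled by TMM (edgeR 4.0.16, R 4.3.3), with factors of 0.970 to 1.03. Ratios of CPM carry exact Clopper-Pearson intervals (scipy 1.17.1). Reads without molecular identifiers are not independent molecules, so intervals and floors cover counting error only. A gene was called at 2-fold with a mean of at least 50 counts. A check of the code on simulated counts with known folds was run. The simulated counts held counting error only, so the check does not cover spread between animals or pools. No statistical test across samples was run: each group is 1 library, and the genotypes were not pooled as replicates of LPS culture.

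The 9 genes and the gene lists were chosen with earlier results of these data known. The text names all 9 genes, the extended network, genes with the 3 highest and the 3 lowest mean LPS ratios of each list (not all are printed), and the 3 genes nearest in pattern. It also names the MYC-repressed targets under the count minimum, added after seeing the data. Alternatives were other library scalings (total counts, DESeq2 1.42.0 size factors, TMM without 260 immunoglobulin genes), kallisto values, count minimums of 10, 200 and none, and a prior of 0.5 CPM. For promoter motifs the alternative was the 100 bases nearest the start. Promoter sequences are from RefSeq (GRCm38.p6) and transcript structures from GENCODE M21. A planned comparison of protein sequences was not run. Some members of the gene lists are not reported here and were left out of the lists' counts, sums and medians.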

Additional observations from a re-analysis of the deposited data

Results flagged for a closer look

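Ncor1, a corepressor scaffold on the list of MXD and MNT corepressors, had CPM ratios of opposite sign after LPS, both far short of 2-fold. The sign depended on the scale. In TPM it was lower after LPS in both genotypes, with 91.6 and 80.3 in ΔleftPAL and 112 and 85.5 in ΔIRIS cells. The log2 ratio of CPM was 0.085 in ΔleftPAL cells and -0.11 in ΔIRIS cells, with 4843 and 5666 counts in the ΔleftPAL libraries and 7222 and 6759 in the ΔIRIS libraries. With 1 library per group the difference between the genotypes was not tested.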

How the results depend on the processing

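The log2 ratios of the 8 network genes, 32 values over 4 comparisons, stayed within their counting intervals under total counts, DESeq2 size factors and TMM without immunoglobulin genes. Of these values 2, both near 0, changed sign. The ΔIRIS over ΔleftPAL ratio after LPS of Myc (-0.004) was 0.018 with total counts, 0.016 with DESeq2 size factors and 0.077 with kallisto estimated counts, and that of Mxd1 (-0.04) was 0.008 with kallisto estimated counts. With kallisto estimated counts 26 of 32 stayed within them. The others were the LPS ratios of Myc (-0.91 in ΔleftPAL, -0.70 in ΔIRIS), Max (0.38 and 0.46) and Mxd4 (-0.65 and -0.90). TPM moved 15 of 32. The median LPS log2 ratio of all genes was -0.22 in ΔleftPAL and -0.21 in ΔIRIS in TPM, beside 0.13 and 0.15 in CPM over the same genes. In TPM the LPS ratios in ΔleftPAL and ΔIRIS were -1.33 and -1.06 for Myc, 0.018 and 0.055 for Max, -2.10 and -2.90 for Mxd1, 1.00 and 1.34 for Mxd3, and -0.98 and -1.21 for Mxd4. They were -3.3 for Mnt in ΔIRIS and 0.37 for Mlx in ΔleftPAL. The ΔIRIS over ΔleftPAL ratios in TPM were -0.34 for Myc at rest and 0.66 at rest and -0.76 after LPS for Mnt. With protein-coding transcripts alone, tried after seeing the data, those of Mnt were 0.87 and -0.25. The cause of the other shifts was not tested. Kallisto estimated counts moved 12 of the gene lists' median LPS log2 ratios by more than 0.1 and left 4 within it. Only the ΔIRIS median of the other E-box factors changed sign.

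Counts of network genes moved as follows. Those lower after LPS in ΔleftPAL were 2 with kallisto estimated counts (Myc and Mxi1, at -0.96, lost their calls) and 3 with TMM without immunoglobulin genes (without Myc). With kallisto estimated counts 3 were lower in ΔIRIS (without Mxd4) and 2 in both genotypes. Those higher in ΔIRIS were 1 under total counts, DESeq2 size factors, TMM without immunoglobulin genes, a minimum of 200 counts or a prior of 0.5 CPM, since Mlx then fell short of 2-fold or, under the minimum of 200, Mxd3 was left out. A minimum of 200 counts, which leaves out Mxd3, gave 0 higher in ΔleftPAL and 0 higher in both genotypes. Without a minimum 1 gene, Mycn with 3 counts or fewer, counted as lower in ΔIRIS at rest and 1 after LPS.

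The share of all genes called depended on the minimum. Without one, 26.1% were lower after LPS in ΔleftPAL and 31.9% in ΔIRIS, and between genotypes 15.1% were higher and 10.9% lower at rest, 8.44% and 15.1% after LPS. A minimum of 10 counts gave 4.28% and 3.04% at rest and 2.30% and 5.42% after LPS. A minimum of 200 gave 1.57% and 0.726% at rest and 0.603% and 1.4% after LPS. A prior of 0.5 CPM gave 0.567% and 1.41% after LPS. No paired analysis was run: the labels carry no replicate numbers, and the genotypes were not treated as replicates of LPS culture. The values come from no test. Mycn and Mlxipl were both at 3 gene counts or fewer in each library, and the part of depth in this was not tested. In TPM Mlxipl had 1.30 at rest and 0.239 after LPS in ΔleftPAL cells, and 1.55 and 0.440 in ΔIRIS cells.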
